A study of Mus musculus with 5 samples.

Results

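The genes described here are Apln, Aplnr, Esm1, Adm, Calcrl, Ramp1, Ramp2 and Ramp3, 8 genes of apelin signalling, adrenomedullin signalling and endothelial tip cells. They were chosen by symbol, and all 8 had a row among the 17638 genes of the deposited table. All 8 also passed the filter for testing, a mean normalised read count of at least 10, which 14339 genes passed.

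The libraries hold polyadenylated RNA of cells carrying the endothelial surface protein CD31, taken from infarcted mouse hearts at 5 days. There were 2 libraries of the genotype Tbx1cko, an endothelial knockout of the T-box transcription factor gene Tbx1, and 3 libraries of the genotype control. All mice had a C57BL/6 background, were 2 months old and had an infarction, so no library shows an uninjured heart. The sources used here do not give the promoter that drove the deletion, the part of Tbx1 it removed or the alleles of the controls. Whether each library is a separate animal is not stated for either group, and the p-values therefore cover only the spread among the libraries at hand, which may be technical.

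Apelin, encoded by Apln, is a secreted peptide that acts on the G protein-coupled receptor encoded by Aplnr. Apln is switched on in the sprouting endothelial tip cells that lead a new vessel, and it is also induced by low oxygen. Adrenomedullin, encoded by Adm, is a vasodilator peptide whose gene is a target of the hypoxia-inducible factors. Its receptor is a complex of the receptor protein encoded by Calcrl and a receptor activity-modifying protein, or RAMP. With RAMP1 the complex prefers calcitonin gene-related peptide, and with RAMP2 or RAMP3 it prefers adrenomedullin. Esm1 encodes endocan, a proteoglycan secreted by tip cells in response to VEGF.

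Sequence upstream of the 3 genes that encode secreted factors is shown because Adm and Apln are known as hypoxia-responsive and because hypoxia genes are counted further on. The promoter table of RefSeq on GRCm38.p6 held 6 of the 8 genes, all but Aplnr and Ramp2. The 100 bases before the annotated start of each gene read 5′ to 3′ on the strand of the gene, with capitals marking the hypoxia core motif GCGTG or, on the other strand, CACGC.
Adm, chr7:110627557-110627656, plus strand: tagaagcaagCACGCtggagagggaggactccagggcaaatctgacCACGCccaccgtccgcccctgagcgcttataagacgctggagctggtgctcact
Esm1, chr13:113209559-113209658, plus strand: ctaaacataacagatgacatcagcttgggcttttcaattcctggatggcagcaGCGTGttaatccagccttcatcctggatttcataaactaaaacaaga
Apln, chrX:48034854-48034953, minus strand: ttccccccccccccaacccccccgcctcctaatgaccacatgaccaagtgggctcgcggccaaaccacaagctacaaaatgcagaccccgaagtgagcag
Adm held the motif at 90 and 54 bases before its start, Esm1 at 47 bases before it, and Apln held none. In the whole window, from 250 bases before to 50 after the start, 4 of the 6 genes held GCGTG on either strand (Adm, Esm1, Calcrl and Ramp3), as did 32.4% of all 32851 promoters. The other form of the core, ACGTG, stood in 0 of the 6 and in 19.6% of all promoters. The T-box half-site AGGTGTGA, which does not overlap either core, was in 0 of the 6 and in 1.28% of all promoters. These matches describe letters in a window and show no binding.

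Recovered reads came to between 14689782 and 18617284 per library. Tbx1, the deleted gene, had 18.3 and 17.3 normalised reads in Tbx1cko replicates 1 and 2, against 64.4, 72.7 and 69.6 in control replicates 1 to 3. The values thus go with the labels. Its log2 difference was -1.89 with all libraries (limma adjusted p = 0.762) and -1.85 without control replicate 2 (limma adjusted p = 0.214). The limma threshold thus did not call the deleted gene in either fit. Markers of endothelial cells were present throughout. Their summed normalised count over 10 genes was 163200 to 174850 in Tbx1cko and 176900 to 257454 in controls. Markers of other cells that a CD31 preparation may hold were present too. Their sums over 10 leukocyte genes were 76525 and 81363 in Tbx1cko and 49021 to 79427 in controls. Over 5 platelet genes the sums did not overlap, at 3676 and 3216 in Tbx1cko and 1355 to 2362 in controls. Of those 5 genes, 4 were higher in Tbx1cko and 1 lower. Control replicate 2 stood apart, with a correlation of log2 values across genes of 0.859 to 0.889 to the other libraries, which correlated with each other at 0.98 to 0.988. Its deviation from them followed the GC content of the transcripts (Spearman rho 0.822 across genes, which are not independent replicates). For this reason the differences of the 8 genes are given with and without it. Tbx1cko replicate 2 also differed from the rest, with 12968 normalised reads of Xist, against 0 in Tbx1cko replicate 1 and 0 to 16.9 in the controls, and 3.06 of the Y-linked Ddx3y, against 1929 in Tbx1cko replicate 1 and 43.2 to 2116 in the controls.

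Expression of the 8 genes was compared between Tbx1cko and control to ask whether loss of Tbx1 changed these signals in CD31-positive cells after infarction. No change was detected for any of them, in a comparison where the limma threshold did not call Tbx1 itself. With limma on log2(normalised count + 1), 0 of the 8 passed an adjusted p of 0.05 over all genes tested, where 0.0% of the 14339 genes passed. At an unadjusted p under 0.05 the count was 0 of 8, against 1.74% of all genes. On the recovered reads, edgeR and DESeq2 also called 0 of the 8, where they called 0.0% and 0.0279% of all genes. Without control replicate 2 the count was again 0 of 8 in limma, edgeR and DESeq2, where 0.0209%, 0.00697% and 0.544% of all genes passed, and 0 of 8 had an unadjusted limma p under 0.05, against 7.46% of all genes. Ramp1 got no adjusted p in that DESeq2 fit. With all libraries the groups overlapped for all 8 genes, while 28.0% of the genes tested had groups without overlap in either direction. In bulk libraries a change in RNA per cell and a change in the number of cells that express a gene cannot be told apart.

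**Figure D1:**
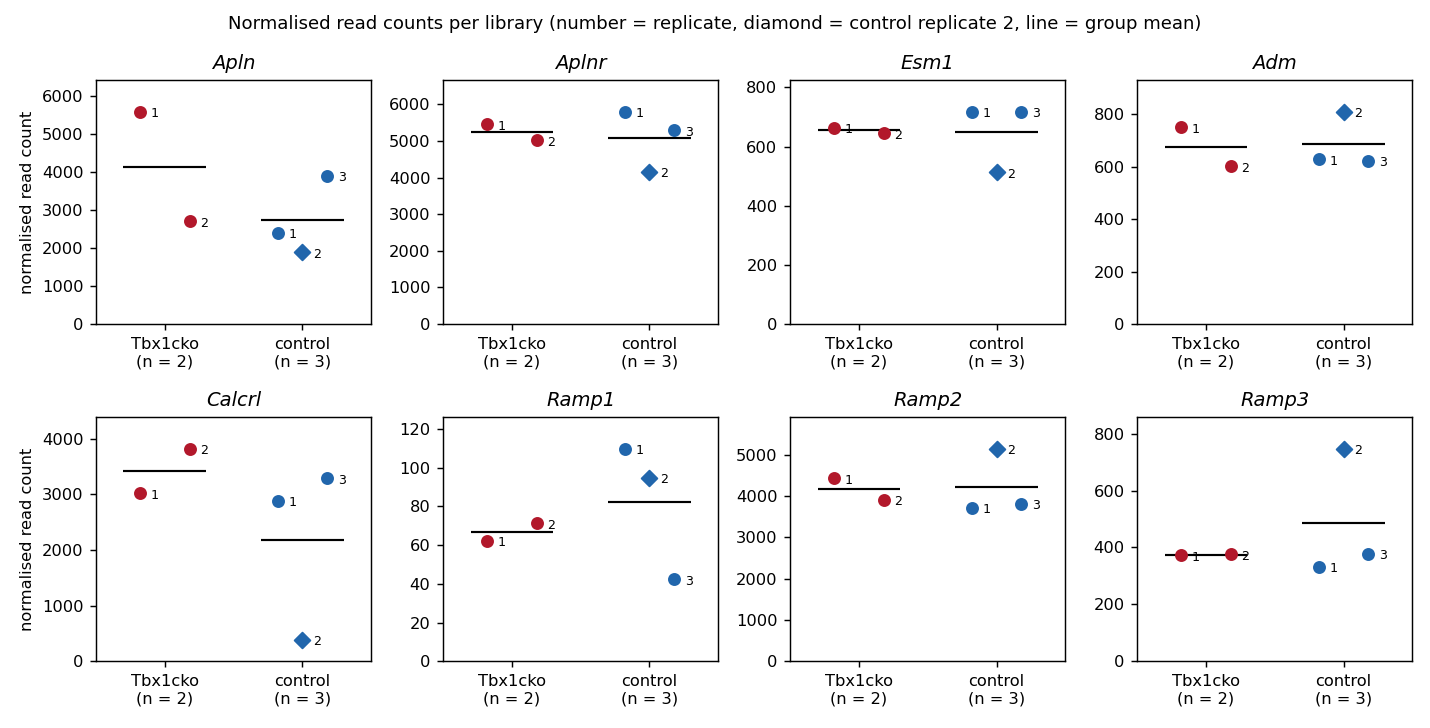
Normalised read count (vertical axis, from 0) of each gene in each library, Tbx1cko left (n = 2) and control right (n = 3); numbers are replicates, diamonds mark control replicate 2 and lines are group means. Groups overlap in every panel, Calcrl has 1 low control at 393 reads, and Apln has its highest value, 5597, in Tbx1cko replicate 1.

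Among the ligands, Apln varied most from library to library. The gene (ENSMUSG00000037010.7) is protein-coding and occupies chromosome X from 48025146 to 48034853 in GRCm38, on the minus strand. Apln had 5597 and 2704 normalised reads in Tbx1cko replicates 1 and 2, against 2402, 1889 and 3913 in control replicates 1 to 3. Tbx1cko replicate 1 was the highest library, Tbx1cko replicate 2 lay among the controls, and the groups overlapped. Tbx1cko averaged 4151 ± 2046 (SD, n = 2), against 2735 ± 1052 in controls (SD, n = 3). The fitted log2 difference was 0.58 (SE 0.44), with a 95% interval of -0.54 to 1.69, a limma unadjusted p of 0.247 and an adjusted p of 0.762. In terms of fold, the interval ran from 0.69 to 3.23, so these libraries allow a sizeable difference in either direction.

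The difference in Apln depended on which Tbx1cko library was kept. It was 0.34 (95% interval -0.30 to 0.99) without control replicate 2. It was 1.10 without Tbx1cko replicate 2 and 0.05 without Tbx1cko replicate 1, each fit leaving a lone Tbx1cko library that is assumed to vary like the controls. Apln is X-linked, and Tbx1cko replicate 2 is the library with Xist reads. The part of sex in the Apln values was not tested. Between the Tbx1cko libraries Apln differed 2.07-fold, while Adm, Aplnr, Esm1, Calcrl and the RAMP genes differed there by at most 1.26-fold in either direction. Without control replicate 2, the highest of the other 4 libraries was 2.33 times the lowest for Apln, a ratio larger than that of 93.2% of the genes tested.

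Adm, the adrenomedullin gene (ENSMUSG00000030790.15, protein-coding, plus strand of chromosome 7, from 110627661 to 110629820), had 749 and 601 normalised reads in Tbx1cko, against 628, 809 and 623 in controls. Tbx1cko replicate 1 lay within the span of the controls, and replicate 2 lay just under it. Adm averaged 675 ± 105 in Tbx1cko (SD, n = 2) and 687 ± 106 in controls (SD, n = 3), a log2 difference of -0.02 (SE 0.24, 95% interval -0.61 to 0.57, limma adjusted p = 0.973). Its highest library was control replicate 2, and without that library the difference was 0.10 (95% interval -0.22 to 0.43).

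Esm1 (ENSMUSG00000042379.8, protein-coding, plus strand of chromosome 13, from 113209659 to 113218098), the endocan gene, had 664 and 645 normalised reads in Tbx1cko, against 716, 513 and 718 in controls. With all libraries the Tbx1cko values lay inside the control range, at a log2 difference of 0.03 (SE 0.24, limma adjusted p = 0.965). Control replicate 2 held the lowest Esm1 value, and without it both Tbx1cko libraries were under both controls, at a difference of -0.13 (95% interval -0.42 to 0.15, limma adjusted p = 0.864). In that comparison of 2 against 2 libraries, 17.8% of all genes tested were lower in Tbx1cko without overlap. The ratio of the highest to the lowest of those 4 libraries was 1.11, and 8.35% of the genes tested had a smaller one. Correction for GC content turned the difference to -0.57 (limma adjusted p = 0.818), with control replicate 2 then the highest library.

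Aplnr, the apelin receptor gene, lies on the plus strand of chromosome 2, from 85136225 to 85139923 (ENSMUSG00000044338.9, a protein-coding gene with 1 exon). It had 5459 and 5015 normalised reads in Tbx1cko, against 5804, 4156 and 5298 in controls, so both Tbx1cko values fell inside the control range. Aplnr averaged 5237 ± 314 in Tbx1cko (SD, n = 2) and 5086 ± 845 in controls (SD, n = 3). The log2 difference was 0.05 (SE 0.21, 95% interval -0.47 to 0.58, limma adjusted p = 0.919), and without control replicate 2 it was -0.08 (95% interval -0.35 to 0.19). As a fold, the interval without that library ran from 0.78 to 1.14 for Aplnr, while that of Apln, its ligand gene, ran from 0.81 to 1.98.

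Calcrl, which encodes the shared receptor protein of adrenomedullin and calcitonin gene-related peptide, gave the largest fitted difference of the 8 and also the widest interval. The gene (ENSMUSG00000059588.13) is protein-coding and occupies chromosome 2 from 84330626 to 84425411, on the minus strand. It had 3021 and 3818 normalised reads in Tbx1cko, against 2886, 393 and 3294 in controls. Control replicate 2 was far below every other library, and the remaining controls overlapped with Tbx1cko. Calcrl averaged 3420 ± 564 in Tbx1cko (SD, n = 2) and 2191 ± 1571 in controls (SD, n = 3), a log2 difference of 1.13 (SE 0.97, 95% interval -1.30 to 3.56, limma adjusted p = 0.762). Without control replicate 2 the difference was 0.14 (95% interval -0.17 to 0.45, limma adjusted p = 0.867), which is a fold between 0.89 and 1.37.

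The low Calcrl value of control replicate 2 went with the base composition of the gene. The transcripts of Calcrl had a GC content of 37.5%, and 0.742% of the 13747 tested genes with an annotated GC content had a lower one. In control replicate 2 Calcrl was 8.22-fold below the mean log2 level of the other libraries, and 689 of the 14339 genes tested lay still lower there. After a correction of each library for GC content, Calcrl in control replicate 2 was above the mean of the other libraries, by 0.66 on the log2 scale, and the difference between the genotypes was -0.19 (limma adjusted p = 0.844). The correction did not bring every gene of control replicate 2 nearer to the other libraries. Esm1 there was at -0.42 from their mean before it and at 1.14 after it, and Apln at -0.87 before and -1.13 after, on the log2 scale. At the other end, the RAMP genes, with GC contents of 54.6% to 56.1%, were in control replicate 2 above the mean log2 level of the other libraries, Ramp3 by 2.05-fold, Ramp1 by 1.40-fold and Ramp2 by 1.30-fold. Ramp1 was higher still in control replicate 1.

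**Figure D2:**
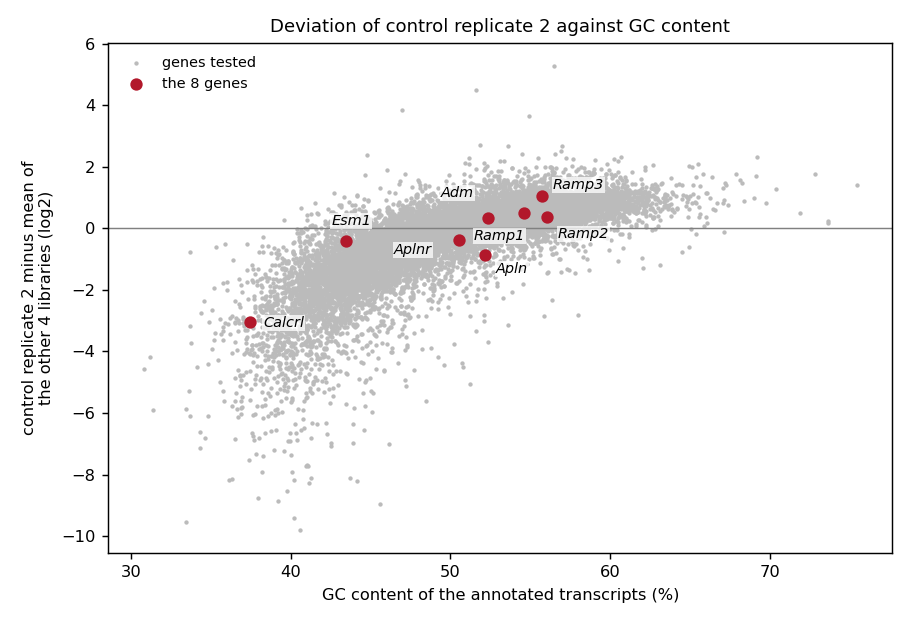
Log2 value of control replicate 2 minus the mean of the other 4 libraries (vertical axis) against the GC content of the annotated transcripts in percent (horizontal axis), for the genes tested (grey) and the 8 genes (red). Calcrl, at 37.5% GC, lies at -3.04, and Ramp3, at 55.7% GC, at 1.03.

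The RAMP genes differed widely in level but not detectably between genotypes. Ramp2 (ENSMUSG00000001240.13, protein-coding, plus strand of chromosome 11, from 101246028 to 101259546) encodes the partner that directs the receptor to adrenomedullin. It had 4434 and 3914 normalised reads in Tbx1cko, against 3723, 5139.9 and 3815 in controls, with a log2 difference of -0.0046 (SE 0.22, 95% interval -0.55 to 0.55, limma adjusted p = 0.994). Both Tbx1cko values lay within the control range. Without control replicate 2, its highest library, both Tbx1cko values were above both controls, at 0.14 (95% interval -0.12 to 0.41, limma adjusted p = 0.839), an order that 19.7% of all genes tested showed. The annotation gives Ramp2 and the neighbouring gene Vps25 1103 bases of shared exon on the same strand. Vps25 was listed at 1.88 to 8.15 normalised reads, so how reads of the shared stretch were assigned cannot be seen and the level of Ramp2 is uncertain.

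Ramp3, on chromosome 11 as well (ENSMUSG00000041046.7, protein-coding, plus strand, from 6658521 to 6677475), encodes the other partner for adrenomedullin. It had 372 and 376 normalised reads in Tbx1cko, against 332, 746 and 378 in controls. Apart from control replicate 2 the values lay close together, with a highest to lowest ratio of 1.14 that was larger than that of 13.2% of the genes tested. The log2 difference was -0.28 (SE 0.40, 95% interval -1.27 to 0.71, limma adjusted p = 0.786), and 0.08 (95% interval -0.26 to 0.42) without control replicate 2.

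Ramp1 (ENSMUSG00000034353.14, protein-coding, plus strand of chromosome 1, from 91179822 to 91225196), the partner for calcitonin gene-related peptide, was the lowest of the 8. It had 62.2 and 71.3 normalised reads in Tbx1cko, against 109.6, 94.7 and 42.3 in controls. The controls spread on both sides of the Tbx1cko values, and they rested on few reads, 45 in control replicate 3 and 97 to 103 in the others. The log2 difference was -0.19 (SE 0.48, 95% interval -1.39 to 1.01, limma adjusted p = 0.872), and -0.03 (95% interval -0.89 to 0.83) without control replicate 2. Smooth muscle cells also express Ramp1. The summed count of 10 mural cell markers was 40088 and 41911 in Tbx1cko, against 60776, 48702 and 52654 in controls. Of these markers 9 were lower in Tbx1cko and 1 higher. With all libraries limma called 0 of them, against 0.0% of all genes. Without control replicate 2, DESeq2 called 5 of the 10, all lower, against 0.544% of all genes. The part of mural cells in the Ramp1 values was not tested.

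**Figure D3:**
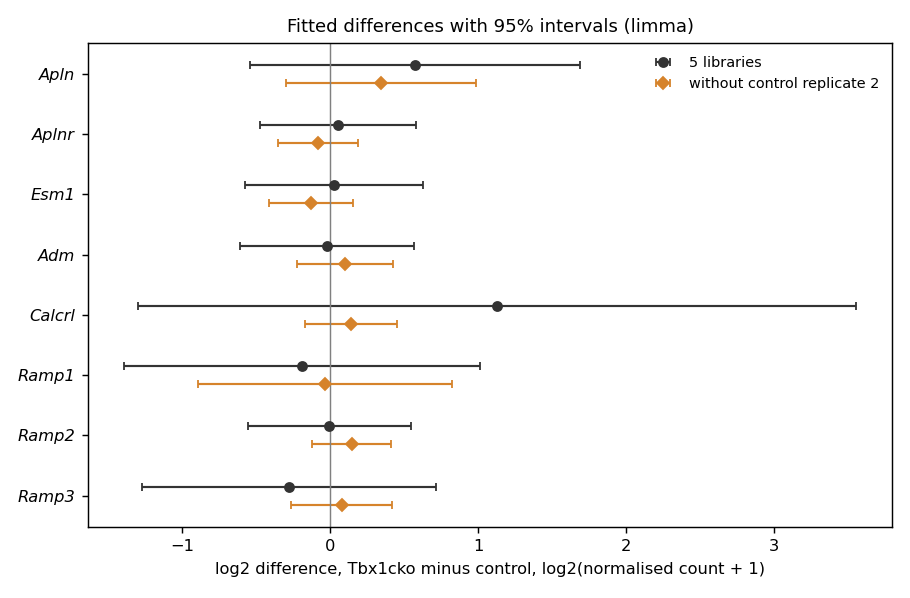
Fitted log2 difference, Tbx1cko minus control, on log2(normalised count + 1) (horizontal axis) for each gene, with 95% intervals from limma, over 5 libraries (circles) and without control replicate 2 (diamonds). Every interval contains 0, and the interval of Calcrl narrows from between -1.30 and 3.56 to between -0.17 and 0.45 without that library.

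Levels of the genes were compared with each other per length, as normalised reads per kilobase of the principal transcript in GENCODE M21. Ramp2 was the highest in every library, at 3764 and 3323 per kilobase in Tbx1cko and 3160.5 to 4363 in controls. This rank depended on the length used. Over the full length of its annotated exons, part of it shared with Vps25, Ramp2 came to 1343 and 1186 in Tbx1cko and 1128 to 1557 in controls. With that length Ramp2 was below Aplnr in every library except control replicate 2. Aplnr had 1476 and 1356 per kilobase in Tbx1cko and 1123 to 1569 in controls. Its ligand gene Apln had 1778 and 859 in Tbx1cko and 600.0 to 1243 in controls, so the ranges of these neighbours in the order overlapped. Calcrl followed with 619 and 782 in Tbx1cko and 80.5 to 675 in controls, and Adm with 539 and 433 in Tbx1cko and 448 to 582 in controls.

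Esm1, at 317 and 308 per kilobase in Tbx1cko and 245 to 342 in controls, and Ramp3, at 302 and 305 in Tbx1cko and 269 to 605 in controls, did not differ beyond their spread. Ramp1 was last, at 26.7 and 30.7 per kilobase in Tbx1cko and 18.2 to 47.1 in controls, in every library below all the other genes. From Calcrl down to Ramp1 the order was identical in the 4 libraries other than control replicate 2. Apln was above Aplnr in Tbx1cko replicate 1 and below it in the other libraries. Control replicate 2 placed Ramp3 above Apln and Calcrl below Esm1.

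**Figure D4:**
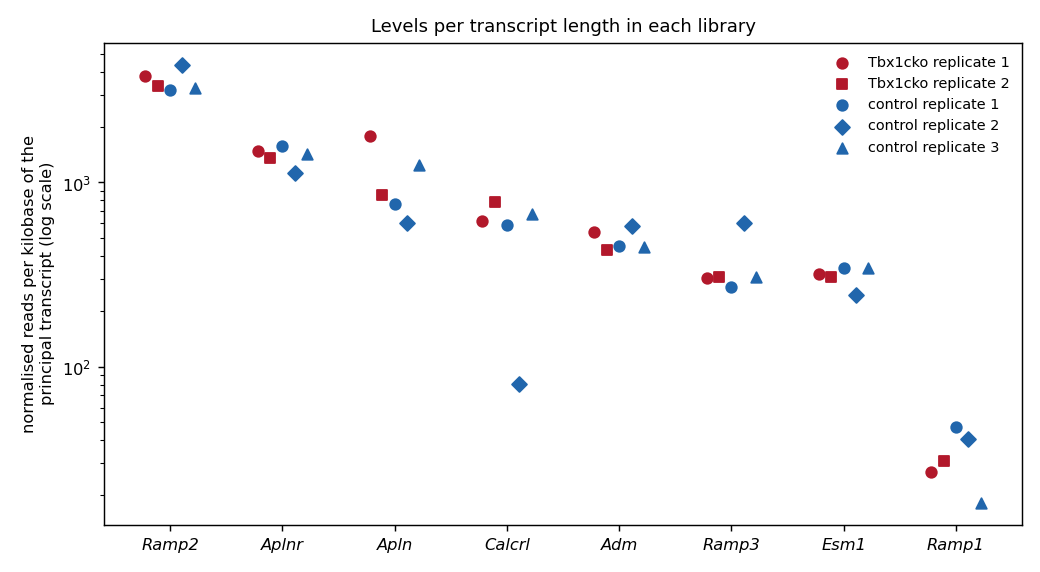
Normalised reads per kilobase of the principal transcript (vertical log axis) of each gene in each library, Tbx1cko in red and control in blue, with genes ordered by their mean. Ramp2 is highest at 3160.5 or more, Ramp1 lowest at 47.1 or less, and Calcrl drops to 80.5 in control replicate 2.

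Of the 3 RAMP genes, Ramp2 made up nearly all of the summed level per length. Its share was 92.0% and 90.8% in Tbx1cko and 90.9%, 87.1% and 90.9% in control replicates 1 to 3. Ramp3 took 7.38% and 8.34% in Tbx1cko and 7.75%, 12.1% and 8.61% in controls, and Ramp1 took 0.654% and 0.839% in Tbx1cko and 0.511% to 1.36% in controls. The make-up in Tbx1cko thus lay within that of the controls, except that the Ramp2 share of replicate 1 and the Ramp3 share of that replicate lay just outside it. With the full exon length the Ramp2 share was 82.2% and 80.0% in Tbx1cko and 73.1% to 80.3% in controls, so the order held and the size of the share depended on the length used.

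The summed RAMP level was 6.61 and 4.68 times that of Calcrl in Tbx1cko, against 5.88, 62.3 and 5.28 times in control replicates 1 to 3. Control replicate 2 was the exception here as for Calcrl itself. The level of Apln was 1.204 and 0.633 times that of its receptor gene Aplnr in Tbx1cko, against 0.486, 0.534 and 0.868 times in controls. Tbx1cko replicate 1 alone had more Apln than Aplnr per length. The level of Adm was 0.871 and 0.553 times that of Calcrl in Tbx1cko, against 0.765, 7.24 and 0.664 times in controls. No test was run on these ratios.

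The other genes of the pathway were taken from a list of 19 ligands, receptors, processing enzymes and signal proteins, of which 12 were tested, 5 higher and 7 lower in Tbx1cko. None passed the limma threshold, as 0.0% of all genes tested did, and 1 of the 12 had an unadjusted p under 0.05, against 1.74% of all. The tools edgeR and DESeq2 called 0, against 0.0% and 0.0279% of all genes. The median log2 difference was -0.12, beside 0.03 over all genes tested. Gnas, the stimulatory G protein subunit, had 384 and 391 normalised reads in Tbx1cko, against 548, 727 and 514 in controls, a log2 difference of -0.60 (limma adjusted p = 0.762). Gnas shares its locus with antisense and alternative transcripts, so its count is uncertain. Furin, a protease that cuts secreted precursors, averaged 3722 ± 97.6 in Tbx1cko (SD, n = 2) and 5011 ± 1208 in controls (SD, n = 3), and the peptide-processing enzyme gene Ece1 averaged 11888 ± 619 in Tbx1cko and 15873 ± 3863 in controls. Gnai2, an inhibitory G protein subunit, had a log2 difference of -0.31, and the beta-arrestin gene Arrb2, whose product ends receptor signalling, one of 0.19. The log2 differences without control replicate 2 were -0.45 for Gnas, -0.22 for Furin, -0.20 for Ece1, -0.16 for Gnai2 and 0.24 for Arrb2. After GC correction of all libraries they were -0.26 for Gnas, -0.07 for Furin, -0.12 for Ece1, -0.04 for Gnai2 and 0.48 for Arrb2.

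Calca, which encodes calcitonin gene-related peptide, was under the filter, at 10.98 and 12.2 normalised reads in Tbx1cko and 4.52, 13.8 and 2.82 in controls. Mme, the peptide-degrading enzyme neprilysin, was under it as well, at 7.32 and 13.2 in Tbx1cko and 2.76 to 4.70 in controls. Apela, Adm2, Calcb, Calcr and Iapp had no row under these symbols in the deposited table, so they were not analysed here.

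Genes known from endothelial tip cells were described with a list of 29 that left out the 8 genes. Of these, 11 were higher and 18 lower in Tbx1cko, with a median log2 difference of -0.12, beside 0.03 over all genes tested. None passed the threshold in limma, edgeR or DESeq2, against 0.0%, 0.0% and 0.0279% of all genes. At an unadjusted limma p under 0.05 the count was 0 of 29, against 1.74% of all genes. In 8 of the 29 genes both Tbx1cko values were below every control, against 13.9% of all genes tested and 5 of 10 pan-endothelial markers. In 2 of the 29 both were above every control, against 14.2% of all genes and 1 of those 10 markers. The potassium channel subunit gene Kcne3 had 116 and 90.7 normalised reads in Tbx1cko, against 26.0, 15.6 and 81.9 in controls. VEGF receptor genes were on the other side, with a log2 difference of -0.33 for Kdr and -0.51 for Flt4, as were the Notch ligand gene Dll4 (-0.49), the semaphorin receptor gene Plxnd1 (-0.48) and the netrin receptor gene Unc5b (-0.54). Each of these had a limma adjusted p of 0.762. Without control replicate 2 the log2 difference was 1.13 for Kcne3, -0.23 for Kdr, -0.30 for Flt4 and -0.26 for each of Dll4, Plxnd1 and Unc5b. After GC correction it was 1.45 for Kcne3, -0.44 for Kdr, -0.24 for Flt4, -0.22 for Dll4, -0.18 for Unc5b and -0.08 for Plxnd1. The median of the list was -0.11 without control replicate 2 and -0.0041 after GC correction. Summed marker counts of some endothelial subtypes also differed between the groups, and the part of those subtypes in these values was not tested. Of 6 lymphatic markers 6 were lower in Tbx1cko, with a summed normalised count of 4483 to 5210 in Tbx1cko and 6448 to 8561 in controls. Of 5 endocardial markers 5 were lower, with sums of 8776 to 9388 in Tbx1cko and 11275 to 15572 in controls, and of 6 venous markers 5 were lower, with sums of 19840 to 21062 in Tbx1cko and 25642 to 37357 in controls. The sum of 6 capillary markers was higher, at 138378 and 173029 in Tbx1cko and 85878 to 122533 in controls, but it rested on the abundant Cd36 and Fabp4, and the other 4 markers were lower. All 6 were higher once control replicate 2 was left out. None of these markers was at 0 in every library. With all libraries limma called 0 of these subtype markers, against 0.0% of all genes, and DESeq2 called 1 venous marker, against 0.0279%. Without control replicate 2, DESeq2 called 4 of the 6 lymphatic and 1 of the 6 venous markers, all lower, against 0.544% of all genes. In that setting limma called 1 venous marker, against 0.0209%. Lower in Tbx1cko with all libraries were 6831 of all 14339 genes tested and 8 of 10 pan-endothelial markers.

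Hypoxia response genes were listed because low oxygen induces Adm and Apln. All 21 were tested, 10 higher and 11 lower in Tbx1cko, with a median log2 difference of -0.02, beside 0.03 over all genes tested. Again 0 passed in limma, edgeR or DESeq2, against 0.0%, 0.0% and 0.0279% of all genes. At an unadjusted limma p under 0.05 the count was 0 of 21, against 1.74% of all genes. In 6 of the 21 genes both Tbx1cko values were above every control, against 14.2% of all genes tested. In 1 of the 21 both were below every control, against 13.9%. Those 6 were also the genes with the smallest unadjusted p of the list. They were the mitophagy receptor gene Bnip3, the pyruvate dehydrogenase kinase gene Pdk1, the glycolytic enzyme gene Pgk1, the oxygen sensor gene Egln3, Higd1a and Ankrd37. Bnip3 averaged 358 ± 54.6 normalised reads in Tbx1cko (SD, n = 2) and 233 ± 44.1 in controls (SD, n = 3), a log2 difference of 0.63 (limma adjusted p = 0.762). Pdk1 averaged 732 ± 90.7 and 491 ± 105, and Egln3 332 ± 13.8 and 211 ± 91.7, in Tbx1cko and in controls. GC correction moved the log2 difference of Bnip3 to 0.40 and that of Pdk1 to 0.37, and without control replicate 2 they were 0.48 and 0.41. Adm, at -0.02, lay at the median of the list with all libraries. That median was 0.0094 without control replicate 2, where Adm was at 0.10. After GC correction it was 0.083, and Adm was at 0.093.

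Patterns over the 5 libraries were also compared with those of 11121 named genes with a mean of at least 50, by the root mean square difference between centred log2 values. The genes most like Apln were Adhfe1, at 0.15, and the mitotic kinesin gene Kif14, at 0.17. Both were highest in Tbx1cko replicate 1 and lowest in control replicate 2. Aplnr was most like Clcc1 (0.01) and Mccc1 (0.03), and Esm1 most like Hnrnph3 (0.02) and Ppp1cc (0.02). Adm was most like Nacc1 (0.02) and Ppp1r14b (0.03), Calcrl most like Zbtb33 (0.05) and Pik3c2a (0.06), and Ramp1 most like Spib (0.11) and Ndufa1 (0.14). Ramp2 was most like Rtfdc1 (0.01) and Emp3 (0.02), and Ramp3 most like Trpv4 (0.03) and Josd2 (0.04). Among the 8 genes themselves the nearest pairs were Adm and Ramp2, at 0.05, and Aplnr and Esm1, at 0.06, while Calcrl and Ramp3 were farthest apart, at 1.63. With 5 libraries such closeness is a description, and control replicate 2 was the extreme library in most of these matches. Aplnr, Esm1, Calcrl and the genes named for them were all lowest there. Adm, Ramp2, Ramp3 and the genes named for them were all highest there. The nearest pairs among the 8 genes thus shared their extreme in that library, and Calcrl and Ramp3 had opposite ones.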

How the data were processed

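RNA was sequenced from 5 heart libraries of CD31-positive cells, 2 Tbx1cko and 3 control as the titles give them. It was isolated with TRIzol LS and made into libraries with an Illumina TruSeq kit, per the labels' protocols. The submitters' processing notes name GRCm38 (mm10) as the build and list STAR 2.5.2b, DESeq, DESeq2 1.20.0 and R 3.5.1. Which program counted reads, with which annotation and strand setting, is not given in the sources used here. The deposited signal of a gene is a read count that the authors divided by a size factor of the library. Dividing each value by the lowest non-zero one of that library returned whole reads, to within 0.01, for 100% of values.

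On log2(normalised count + 1), limma 3.58.1 (R 4.3.3) was fitted to the 14339 genes whose normalised counts averaged at least 10, with genotype as the only term. The prior was trended, tests were 2-sided, and Benjamini-Hochberg adjustment ran over all genes tested, at a threshold of 0.05. This scale understates the change of low genes. On the recovered reads, edgeR 4.0.16 and DESeq2 1.42.0 were run as alternatives, and the fits were tested on simulated data. Reads of replicate pairs differed by more than sampling noise (chi-square per degree of freedom of 14.2 or more), so each library counted once. GC content, positions and principal transcript lengths came from GENCODE M21 by symbol (16740 of 17638 symbols had 1 match), and promoters from RefSeq. The 8 genes and the gene lists were chosen with earlier results of these data known. Named were the 8 genes, Tbx1, up to 6 genes per list by unadjusted p, and the 2 genes most similar to each of the 8. A gene that this rule names in the pathway list is not reported here. Xist, Ddx3y, Vps25, Calca, Mme, Hif1a, Igfbp3, Cd36 and Fabp4 were named outside this rule, with their values known.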

Additional observations from a re-analysis of the deposited data

How the results depend on the processing

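In all 17 alternatives 0 of the 8 genes passed the threshold, with a smallest adjusted p of 0.282 (Ramp1 had no adjusted p in DESeq2 without control replicate 2). Over all genes the count was 4 with DESeq2, 0 to 3 with 1 library left out, 1 with edgeR and 78 with DESeq2 without control replicate 2, and 3 with the replicate block, against 0. Between libraries of the same replicate number, deviations from group means correlated across genes at r of -0.056 and -0.046. With 2 Tbx1cko libraries these deviations mirror each other, so the check cannot exclude pairing. With the replicate block Apln was 0.87 and Calcrl 1.67. The Calcrl value (limma unadjusted p = 0.0116, adjusted p = 0.282) had the one unadjusted p under 0.05 for the 8 genes in any fit. Apln kept its sign in all 17, between 0.051 and 1.10, though some of these, such as the filter settings, left its value unchanged. Its lowest value, without Tbx1cko replicate 1, stood beside a median over all genes of 0.037 in that fit. Of the 136 log2 differences, 1 per gene and alternative, 27 changed sign. All 27 were of the other genes, for most of which the difference was near 0. With 1 library left out the ranges were -0.084 to 0.16 for Aplnr, -0.13 to 0.11 for Esm1, -0.18 to 0.14 for Adm, 0.14 to 1.67 for Calcrl, -0.61 to 0.070 for Ramp1, -0.094 to 0.14 for Ramp2 and -0.50 to 0.078 for Ramp3. Without control replicate 2, edgeR and DESeq2 gave -0.098 and -0.097 for Aplnr, -0.15 and -0.14 for Esm1, 0.097 and 0.098 for Adm, 0.13 and 0.14 for Ramp2, and 0.061 and 0.062 for Ramp3. With edgeR on all libraries Esm1 was -0.0014. GC correction gave -0.57 for Esm1, 0.093 for Adm, -0.19 for Calcrl, 0.026 for Ramp1 and 0.27 for Ramp2. Scaling to endothelial markers, which moved the median of all genes to 0.22, gave 0.17 for Adm and 0.19 for Ramp2, both under that median. Why signs changed was not tested. Depth limits Ramp1 most, at 45 to 103 reads a library.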

Other observations

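Hif1a, which encodes the oxygen-regulated subunit of hypoxia-inducible factor, had 5505 and 5143 normalised reads in Tbx1cko, against 5115, 430.5 and 5464 in control replicates 1 to 3. As for Calcrl, control replicate 2 was far below the other libraries. The tip-cell gene Igfbp3 had 8605 and 4749 normalised reads in Tbx1cko, against 4203, 5613 and 8513 in controls, so that, as for Apln, Tbx1cko replicate 1 was the highest library and control replicate 3 the highest control. Igfbp3 was chosen after its values were seen.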
